A study of Mus musculus with 12 samples.

Results

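The effect of chronic nicotine on cortical somatostatin (Sst) interneurons was examined by comparing the Sst+Nic libraries with the Sst libraries of the same study. These 5 libraries, 3 of Sst (replicates 1, 2 and 3) and 2 of Sst+Nic (replicates 2 and 3), are among 12 in the series, which also holds Thy1 pyramidal neurons under the same treatments. Replicate 1 of Sst+Nic was not analysed here. The mice of both groups were male GIN mice on an FVB background, 5 to 7 weeks of age and of 20 g, in which a Gad promoter drives enhanced green fluorescent protein in a group of Sst interneurons. Each carried a subcutaneous mini pump for 14 days. In the Sst group the pump held saline, and in the Sst+Nic group it gave nicotine hydrogen tartrate at 48 mg/kg/d. Fluorescent cells were aspirated by hand from dissociated cortex, 10 at a time, and each library came from the cells of 1 mouse. The transgene marks only part of the Sst population, and cells that do not carry the label were not sampled.

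Sst interneurons are inhibitory cells that release GABA and the peptide somatostatin, mostly onto the distal dendrites of pyramidal neurons. Nicotine acts on nicotinic acetylcholine receptors, cation channels that several classes of cortical interneuron carry, and prolonged exposure is known to desensitize these receptors and to change their number. The respiratory chain that meets the energy demand of such cells is built from proteins of both the mitochondrial and the nuclear genome.

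The count table listed 35129 entries. Entry names were used only for mitochondrially encoded entries and for genes in the first stretch of 4 GRCm38 chromosomes, up to base 88290863 of chromosome 16, 14901720 of chromosome 8, 6398464 of chromosome 19 and 3299355 of chromosome 7, where the last genes used end. This left 1055 named entries, 1018 nuclear and 37 mitochondrial. Outside these stretches, 12 of 12 abundant neuronal and housekeeping genes that were checked lay under 10 CPM in every library of the comparison, and no gene there is named. None of the 16 entries for nicotinic receptor subunits is in the named stretches, so the receptors themselves could not be described. The total of counted fragments was 4022038, 3920591 and 3705213 in Sst replicates 1, 2 and 3, and 2915738 and 4878326 in Sst+Nic replicates 2 and 3. Named entries held 49.6%, 59.0% and 52.8% of it in Sst and 45.8% and 55.0% in Sst+Nic. Since the abundant genes checked were nearly absent from the counts, shares below are of counted fragments, not of all mRNA in the cells. The part of uncounted RNA in the differences between the groups was not tested. A count of 0 allowed between 0.613 and 0.929 normalized CPM (3 counts of the total), for counting error only. Levels below are normalized CPM, that is, counts scaled by TMM to a library of 1000000 fragments, and log2 fold changes are Sst+Nic against Sst.

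The marker of the cell type was abundant in all 5 libraries. Sst (chromosome 16, 23889573 to 23891342), the precursor of somatostatin, took 6.12%, 12.6% and 9.11% of the counted fragments in the Sst libraries and 5.38% and 6.46% in the Sst+Nic libraries. The 95% Wilson intervals of these shares are at most 0.0329 percentage points wide on either side and cover counting error only. In the Thy1 libraries with and without nicotine the share did not exceed 0.379%. The mean Sst share was 5.92% ± 0.768 (SD, n = 2) in Sst+Nic and 9.28% ± 3.25 (n = 3) in Sst, a difference of −3.36 percentage points, and the groups overlapped, with a two-sided exact permutation p = 0.4; 2 against 3 libraries cannot go below 0.2. Without Sst replicate 2, the library with the highest share, the difference was −1.70 points. On the normalized scale the level was 57294, 153140 and 97712 CPM in Sst against 45465 and 64443 in Sst+Nic, a log2 fold change of −0.90 (SE 0.41; adjusted p = 1.00 with edgeR). In pooled cells, fewer cells of a type and less RNA per cell cannot be told apart.

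Sst transcription is a textbook case of control by cAMP, through a cAMP response element (CRE) just before its transcript start, and the stretch that holds it is shown because Sst is the gene by which these cells are defined. The CRE begins 48 bases before base 23890844, the transcript start for which RefSeq gives this promoter window. The gene span printed above reaches farther upstream, to 23891342, and so takes in the stretch, chr16:23890874-23890903 of GRCm38.p6 on the minus strand (sequence from RefSeq), with the letters of the CRE in capitals:
Sst: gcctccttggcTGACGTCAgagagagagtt
The palindrome TGACGTCA, which reads the same on both strands, is in 1.79% of the 32851 RefSeq windows from 250 bases before to 50 bases after a gene start, in 21 of 518 windows (4.05%) of the named and tested genes, and in 0 of the 19 windows found for the 24 nuclear and mitochondrial genes with the smallest p-values described below. Of 6 tested genes for monoamine receptors, cyclases and cAMP signalling, 2 were higher and 4 lower in Sst+Nic, with a median log2 fold change of −0.16 (from −0.27 to 0.17 across the alternatives). The receptor gene Htr1f, one of the 4, is described below. Crebbp, the coactivator that CREB recruits, was at 263.9, 141.3 and 118.1 CPM in Sst and 198.9 and 141.6 in Sst+Nic, and Adcy9, an adenylyl cyclase, was at 66.1, 56.4 and 7.2 against 87.9 and 41.5, both with overlap.

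Over all entries, 6689 passed the filter on low counts and were tested, and 0 were called at an adjusted p-value under 0.05 with an absolute log2 fold change above 1 by edgeR. The percentage called was thus 0.0%, against 280 entries (4.19%) at an unadjusted p under 0.05, 179 (2.68%) with a higher and 101 (1.51%) with a lower mean in Sst+Nic. Of the 579 named entries tested, 548 nuclear and 31 mitochondrial, 0 were called and 20 (3.45%) had an unadjusted p under 0.05, 7 (1.21%) with a higher and 13 (2.25%) with a lower mean. A further 159 named entries held a count but were not tested, and 317 were at 0 in all 5 libraries. limma voom called 0 entries and DESeq2 called 51 entries, 2 of which are named. These 2 were Neat1, given below, and Atp13a5, a P5-type ATPase that lies outside the rule for named genes and was picked out after its values were seen. Atp13a5 had 414 counts in Sst+Nic replicate 3 and 0 in the other 4 libraries, so 1 library decides its call. The smallest adjusted p of edgeR was 1.00, and every gene described from here on is therefore a difference in mean level that did not pass the test.

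The spread between libraries was wide. Each library came from hand-collected, amplified cells of 1 mouse, so variation between mice, of cell sampling and of amplification cannot be told apart. Spearman correlations between the libraries ranged from 0.739 to 0.781, and the 2 Sst+Nic libraries correlated with each other at 0.770 while Sst+Nic replicate 2 correlated with Sst replicate 1 at 0.781. The common dispersion was 1.01. Simulated counts of the same design recovered 99.5% of genes changed by 3 log2 units at a dispersion of 0.1, 41.5% at 0.4 and 0% at 0.8. The changed genes were drawn only from entries above a floor of mean counts, so these percentages do not describe genes with few counts. No dispersion as high as 1.01 was simulated. These simulations gave all genes 1 dispersion, and abundant genes were measured more tightly than the common value implies, with an SE of 0.28 for Camk2n2 and 0.21 for CYTB on the log2 scale.

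**Figure D1:**
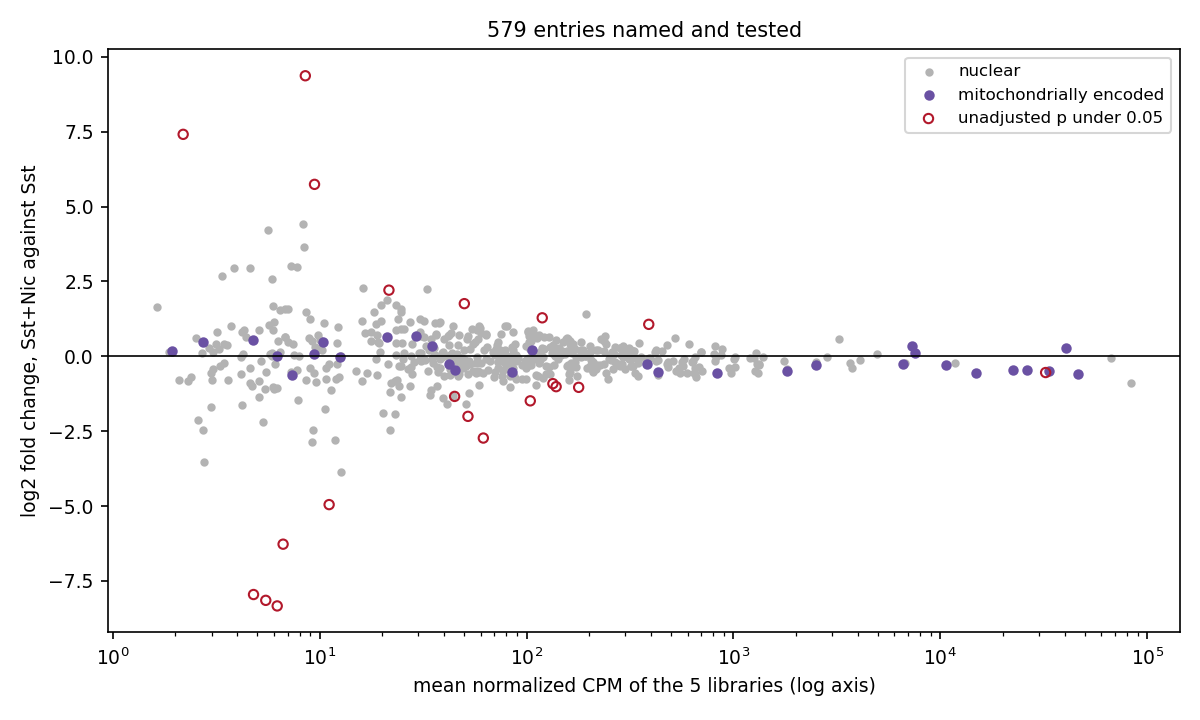
Log2 fold change of Sst+Nic against Sst (vertical axis) by the mean normalized CPM of the 5 libraries (horizontal log axis) for the 579 named entries tested; grey points are nuclear genes, purple points are mitochondrially encoded entries, and red rings mark the 20 entries with an unadjusted p under 0.05. The scatter is widest at the left, where genes have few counts, and most of the mitochondrially encoded genes at the right lie just below 0.

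Groups were also compared by whether any library of one lay within the range of the other. Among all tested entries, the Sst+Nic libraries both lay above the 3 Sst libraries in 851 (12.7%) and below them in 530 (7.92%). Among named entries the split was the other way, with 43 (7.43%) above and 57 (9.84%) below. This split depends on the scaling. With CPM by library totals it was 1071 (16%) above and 320 (4.78%) below over all entries, and 69 (11.9%) above and 33 (5.7%) below among named entries. The median log2 fold change of all entries moved from 0.05 with TMM to 0.27 with library totals, and that of named entries was −0.06 with TMM.

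The 13 proteins of the mitochondrial genome are core subunits of respiratory complexes I, III, IV and V, and their mRNAs had a lower summed share in Sst+Nic. Together they took 21.5%, 22.1% and 21.2% of counted fragments in the Sst libraries and 16.3% and 19.8% in the Sst+Nic libraries. Both nicotine libraries lay below all 3 saline libraries, and the means of 18.1% ± 2.52 (n = 2) and 21.6% ± 0.484 (n = 3) differed by −3.54 percentage points, with a two-sided exact permutation p = 0.2, the smallest that the design allows. Without Sst+Nic replicate 2 the difference was −1.75 points, and without Sst+Nic replicate 3 it was −5.32 points. With Sst left out of the total, so that its own variation could not move the share, the difference was −4.63 points.

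Of the 13 genes, 12 had a lower fitted level in Sst+Nic and 1 a higher one, and 0 were called. The median log2 fold change was −0.45 (range −0.60 to 0.12, SE from 0.20 to 0.34), beside 0.05 over all entries tested, of which 47.1% were below 0 and 52.9% above. Among named entries 54.6% were below 0 and 45.4% above. With library totals 12 were again lower, with a median of −0.23. Without Sst+Nic replicate 2 the median was −0.16, with 10 genes lower and 3 higher, beside −0.12 over all entries in the same fit, so that the difference from other genes was mostly lost. Without Sst+Nic replicate 3 it was −0.79 beside −0.13. These are 13 transcripts cut from the same precursors, not independent genes.

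CYTB (mitochondrial genome, 14145 to 15288), the mitochondrially encoded subunit of complex III, was the member with the smallest p. Its level was 34162, 41664 and 34976 CPM in Sst and 21883 and 28865 in Sst+Nic, with a log2 fold change of −0.54 (SE 0.21; edgeR adjusted p = 1.00). COX3 (8607 to 9390), a core subunit of cytochrome c oxidase, had the lowest fold change of the 13. It was at 44936, 63683 and 52609 CPM in Sst against 27134 and 43840 in Sst+Nic, a log2 fold change of −0.60 (SE 0.27). COX1 (5328 to 6872), which holds the catalytic centre of the same complex, was at 34432, 43735 and 35770 CPM against 22580 and 31820 (log2 fold change −0.48, SE 0.23). In each of these 3 genes the groups did not overlap, and Sst+Nic replicate 2 was the lowest library. ATP8 and ND4 also did not overlap, so that 5 of 13 lay wholly below the saline range, beside the 7.92% of all entries given above. By library totals ND4 overlapped, while ATP6 and ND1 did not, which made 6 of 13, beside 4.78% of all entries on that scale.

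COX2, the subunit that takes electrons from cytochrome c, was at 23760, 34292 and 30222 CPM in Sst and 16545 and 26718 in Sst+Nic (log2 fold change −0.44, SE 0.27). ATP6 and ATP8, membrane subunits of ATP synthase whose reading frames overlap, had log2 fold changes of −0.56 (SE 0.26) and −0.57 (SE 0.28). Fragments in the shared part cannot be assigned to 1 of them, and the same holds for ND4L and ND4. The subunits of complex I followed. ND1, ND2, ND3, ND4, ND4L and ND6 had log2 fold changes from −0.50 (ND3) to −0.24 (ND2), and ND2 and ND4L came out at 0.13 and 0.10 without Sst+Nic replicate 2. ND5 (11742 to 13565) was the exception, with 8265, 7719 and 5809 CPM in Sst and 7919 and 7867 in Sst+Nic, a log2 fold change of 0.12 (SE 0.22) that was −0.01 without Sst replicate 3.

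By complex, the share of counted fragments was 3.65%, 3.43% and 3.26% for complex III in Sst against 2.59% and 2.895% in Sst+Nic. For complex IV it was 11.02%, 11.7% and 11.1% against 7.84% and 10.3%. For complex V it was 1.51%, 1.73% and 1.76% against 1.20% and 1.43%. In these 3 complexes the nicotine libraries lay below every saline library (exact permutation p = 0.2 each, unadjusted over 4 complexes). Complex I took 5.30%, 5.30% and 5.09% in Sst and 4.65% and 5.24% in Sst+Nic, where the groups overlapped (exact permutation p = 0.4). The difference in mean share was thus −2.20 points for complex IV, −0.71 for III, −0.35 for V and −0.29 for I. Without Sst+Nic replicate 2 these differences were −0.98 for IV, −0.55 for III, −0.23 for V and 0.01 for I, and without Sst+Nic replicate 3 they were −3.41, −0.86, −0.46 and −0.58.

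The ribosomal RNAs of the same genome did not have a lower mean. Rnr1 and Rnr2, the RNAs of the small and large mitochondrial ribosomal subunits, together took 4.54%, 4.85% and 2.81% of fragments in Sst and 4.05% and 7.30% in Sst+Nic (exact permutation p = 0.6), and the groups overlapped. The difference of 1.61 points was −0.02 without Sst+Nic replicate 3. Relative to the 13 mRNAs they stood at 21.2%, 21.9% and 13.3% in Sst and 24.9% and 36.8% in Sst+Nic. This ratio was higher in both nicotine libraries than in any saline library (exact permutation p = 0.2), by 12.0 percentage points on average, a difference of 6.08 points without Sst+Nic replicate 3 and 18.0 without Sst+Nic replicate 2. The paper lists a trimming of rRNA reads before mapping, and the part of that step in the rRNA counts was not tested. Of 16 mitochondrial tRNA entries tested, 10 had a higher and 6 a lower fitted level in Sst+Nic.

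**Figure D2:**
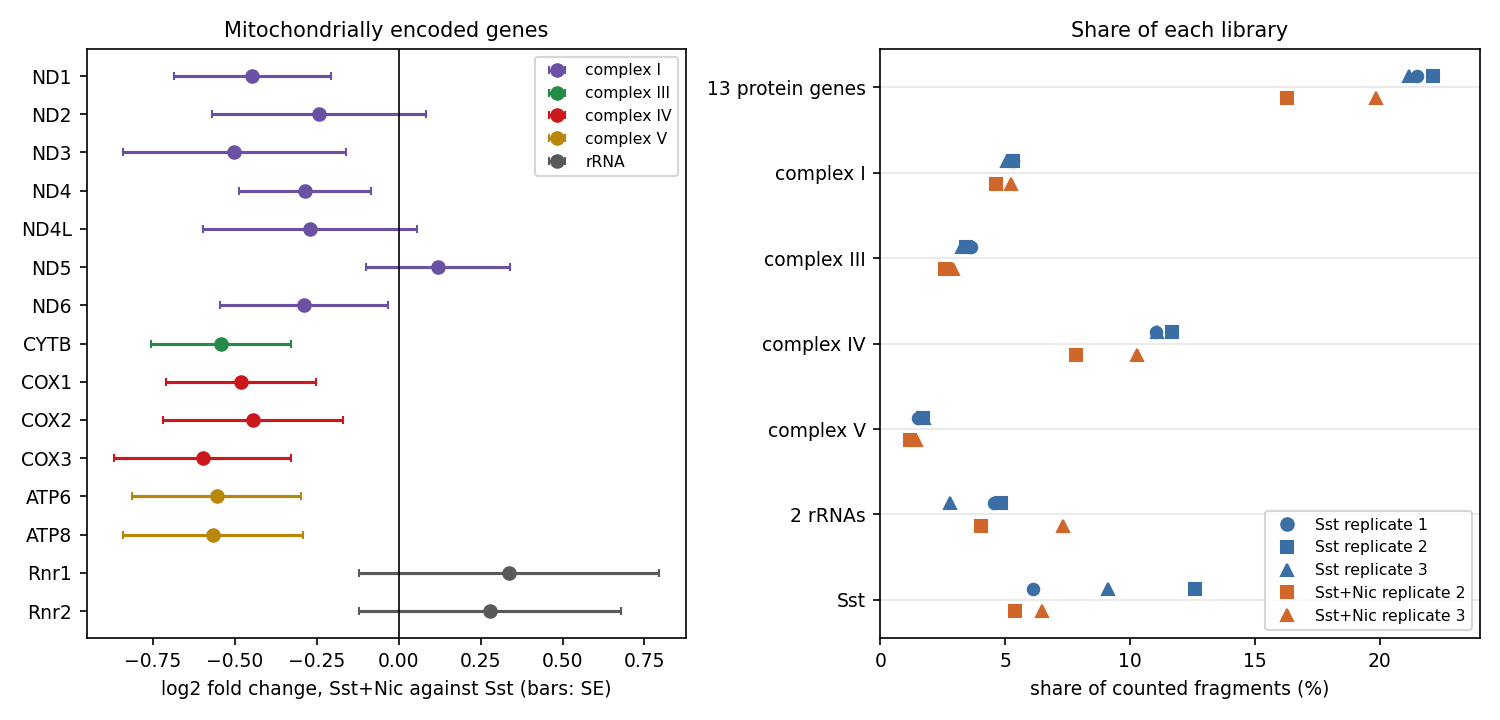
Left, log2 fold change of Sst+Nic against Sst with its SE for the 13 mitochondrially encoded protein genes, coloured by respiratory complex, and the 2 mitochondrial rRNAs. Right, share of counted fragments (%) in each of the 5 libraries for the 13 protein genes together, each complex, the rRNAs and Sst, with saline above and nicotine below each line. All protein genes but ND5 lie left of 0, and for the 13 genes together the nicotine libraries (16.3% and 19.8%) sit below the saline libraries (21.2% to 22.1%).

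Most nuclear genes for mitochondrial proteins also had a lower fitted level. Of 26 listed genes for respiration, mitochondrial translation, import, transport and metabolism, 24 were tested, 19 had a lower and 5 a higher fitted level in Sst+Nic, and 0 were called. Their median log2 fold change was −0.39, and between 16 and 20 of them were lower across the alternatives, with a median of −0.14 when library totals were used and −0.25 without Sst+Nic replicate 3. Over all entries the median was 0.05 with TMM, 0.27 with library totals and −0.13 without Sst+Nic replicate 3. Summed over the 26 genes the level was 7976, 8944 and 8888 CPM in Sst and 6775 and 6637 in Sst+Nic, and 8 genes lay wholly below the saline range, beside 7.92% of all entries and 9.84% of named entries. The separation of the sums and of most of the 8 genes rests on the scaling. With library totals the sums were 8522, 7364 and 8289 CPM against 8014 and 6657, which overlapped, and 3 of the 8 (Atp5j, Mrpl21 and Mrpl40) still lay below. Ndufb4 lay below only with library totals, which made 4 of 26, beside 4.78% of all entries and 5.7% of named entries. With TMM none of the 24 tested lay wholly above the saline range, beside 12.7% and 7.43%, and 1 untested member, Prodh (proline dehydrogenase), did, at 0, 0 and 0.9 CPM against 15.4 and 1.2. The mitochondrial ribosomal protein genes contributed 4 of the 8 that lay below with TMM. Mrpl49 was at 504.2, 399.6 and 613.5 CPM in Sst and 297.5 and 356.6 in Sst+Nic (log2 fold change −0.63), Mrpl21 at 323.9, 539.6 and 348.7 against 272.6 and 240.1 (−0.66), and Mrpl40 at 303.2, 410.8 and 444.8 against 230.5 and 291.0 (−0.57). Mrpl11 was at 423.9, 622.0 and 549.8 CPM against 419.0 and 403.0.

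Complex I subunits of the nuclear genome were also at lower means. Ndufs8, an iron-sulphur subunit, was at 1048, 918.5 and 1212 CPM in Sst and 775.9 and 830.9 in Sst+Nic, with no overlap on this scale and with overlap by library totals. Ndufv1 (chromosome 19, 4007499 to 4012755), the flavin-binding subunit, was at 1586, 1468 and 1096 CPM against 1237 and 1091, which overlapped. Cox17, a copper chaperone for complex IV, was at 505.2, 858.1 and 707.2 CPM against 382.4 and 544.8. Atp5j, a subunit of the ATP synthase stalk, had the largest fold change of the list (log2 fold change −6.27, SE 2.08), but it rested on 17, 23 and 76 counts in Sst and 0 and 1 in Sst+Nic, and its position overlaps that of Gabpa. The tested members with a higher fitted level were Opa1, Trap1, Txnrd2, Cpt1a and Pcx. Trap1 (chromosome 16, 4039971 to 4077840), a mitochondrial chaperone of the Hsp90 family, was at 304.4, 215.0 and 209.5 CPM in Sst and 343.6 and 265.9 in Sst+Nic, and Opa1, which fuses the inner membrane, was at 115.4, 41.5 and 159.2 against 229.1 and 98.7.

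Of the 12 named entries with the smallest p-values and a higher mean in Sst+Nic, all 12 did not overlap between the groups, which the ordering by p favours. Both nicotine libraries lay above the saline range in 12.7% of all entries and 7.43% of named entries. Neat1 (chromosome 19, 5824708 to 5845480), the long noncoding RNA that scaffolds nuclear paraspeckles, had 0 counts in all 3 Sst libraries and 49 and 139 counts in Sst+Nic, or 14.2 and 28.4 CPM. Its mean was at least 22.9-fold higher in Sst+Nic when 3 counts per library were taken as the limit in Sst. The edgeR adjusted p was 1.00, whereas DESeq2 gave 0.0021; under the other alternatives it ranged from 0.079 to 1.00. In the Thy1 libraries, scaled by library totals and not by TMM, Neat1 was at 0.286 and 0.824 CPM under saline. Under nicotine it was at 30.8, 7.09 and 0 CPM, so the gene was detected unevenly there too. Malat1 (5795690 to 5802672), the neighbouring nuclear noncoding RNA, did not show the same pattern, with 28764, 102860 and 72270 CPM in Sst and 38379 and 91814 in Sst+Nic.

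Serpind1 (chromosome 16, 17331371 to 17343574), which encodes the thrombin inhibitor heparin cofactor II, was at 0, 1.24 and 0 CPM in Sst and 14.5 and 31.5 in Sst+Nic, from 4 counts in Sst against 50 and 154. It lies inside Pi4ka, a phosphatidylinositol kinase gene whose level was 436.8, 380.4 and 371.0 CPM in Sst and 400.7 and 306.5 in Sst+Nic. Parp14 (35831892 to 35871518), an ADP-ribosyltransferase induced by interferon, had 0 counts in the Sst libraries and 18 and 28 in Sst+Nic, a mean at least 5.89-fold higher. In the Thy1 libraries Parp14 had 0 counts throughout.

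Genes with counts in every library were more moderate. Fyttd1 (32877581 to 32908963), an adaptor for mRNA export, was at 350.6, 248.4 and 213.8 CPM in Sst and 635.3 and 500.7 in Sst+Nic, 2.10 times the saline mean (log2 fold change 1.07, SE 0.30). Its position overlaps that of Rubcn. Ehd1 (chromosome 19, 6276896 to 6300096), an ATPase that recycles endosomes, was at 9.77, 11.2 and 5.498 CPM in Sst and 37.1 and 44.6 in Sst+Nic, or 4.64 times the saline mean (log2 fold change 2.21, SE 0.72). Sac3d1, a centrosome-associated protein gene, was at 9.07, 4.65 and 16.8 CPM against 30.2 and 44.6. In Ehd1 and Sac3d1 the lower nicotine library was still above the highest saline library.

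Insr (chromosome 8, 3150922 to 3279649), the insulin receptor, was at 35.1, 17.3 and 24.3 CPM in Sst and 36.2 and 137.1 in Sst+Nic. Sst+Nic replicate 3 alone stood apart, and without it the log2 fold change went from 1.76 to 0.47. Ctxn1 (chromosome 8, 4257646 to 4259274), which encodes the small neuronal membrane protein cortexin, was at 68.2, 45.2 and 113.4 CPM against 120.0 and 248.5, again with replicate 3 the highest. Cxadr, an adhesion protein of cell junctions, was at 44.9, 44.0 and 79.3 CPM against 89.3 and 136.9.

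The remaining 3 genes had smaller fold changes. Dnajb11, a chaperone of the endoplasmic reticulum, was at 94.9, 53.9 and 93.8 CPM in Sst and 147.0 and 147.8 in Sst+Nic. Sec22a, which belongs to a family of vesicle transport proteins, was at 97.3, 78.1 and 99.8 CPM against 161.5 and 139.6. Cggbp1, which binds CGG repeats in DNA, was at 212.0, 222.4 and 148.2 CPM against 295.7 and 324.5 (log2 fold change 0.68, SE 0.29).

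Of the 12 with a lower mean, 10 did not overlap, which the ordering by p again favours. Both nicotine libraries lay below the saline range in 7.92% of all entries and 9.84% of named entries. Camk2n2 (chromosome 16, 20619215 to 20621278), an inhibitor of the calcium and calmodulin dependent kinase CaMKII, had the smallest p-value of these. It was at 204.8, 232.0 and 237.3 CPM in Sst and 103.2 and 115.9 in Sst+Nic, the saline mean being 2.05 times the nicotine mean (log2 fold change −1.04, SE 0.28). Across the alternatives its log2 fold change stayed between −1.16 and −0.82. Plcxd2 (45959261 to 46010413), a phospholipase C-like gene, was at 173.6, 187.7 and 161.2 CPM against 86.7 and 85.8 (log2 fold change −1.01, SE 0.30). Pnpla6 (chromosome 8, 3515235 to 3544267), the phospholipase known as neuropathy target esterase, was at 176.8, 158.3 and 160.0 CPM against 77.4 and 97.9 (log2 fold change −0.91, SE 0.31). In each of these 3 genes the libraries of a group lay close together and the gap between the groups was wider than either group.

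Boc (44485045 to 44558870), a coreceptor for Sonic hedgehog that takes part in axon guidance, was at 37.5, 95.1 and 148.2 CPM in Sst and 22.6 and 5.72 in Sst+Nic, a log2 fold change of −2.73 (SE 0.85) that was −4.04 without Sst+Nic replicate 2 and −2.08 without Sst+Nic replicate 3. It passed the test with an adjusted p = 0.041 when edgeR was run with no filter on low counts, and not under the other alternatives, whose adjusted p ranged from 0.080 to 1.00. Zbtb20, a zinc finger repressor of developing neurons, was at 76.8, 214.1 and 130.2 CPM in Sst and 60.3 and 39.9 in Sst+Nic. The entry 1600021P15Rik (now Mb21d2) was at 57.7, 38.7 and 127.0 CPM against 13.9 and 23.1, and N6amt1, a methyltransferase gene, at 64.2, 66.3 and 47.2 against 27.8 and 19.01. In these 4 genes both nicotine libraries were below all saline libraries, and in all but N6amt1 the saline libraries were spread widely.

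Htr1f (64924729 to 65105784), a serotonin receptor that inhibits adenylyl cyclase, was at 32.8, 2.48 and 19.1 CPM in Sst and 1.16 and 0 in Sst+Nic. Sst replicate 2, with 8 counts, lay close to Sst+Nic replicate 2, with 4. Leprel1 (now P3h2), a collagen prolyl hydroxylase, had 98, 27 and 0 counts in Sst and 0 in both Sst+Nic libraries, and Ifitm7, of the interferon-induced transmembrane family, had 0, 40 and 52 counts against 0 and 0. These 2 overlapped between the groups, since 1 saline library was also at 0. Ifitm7 overlaps Bmerb1.

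**Figure D3:**
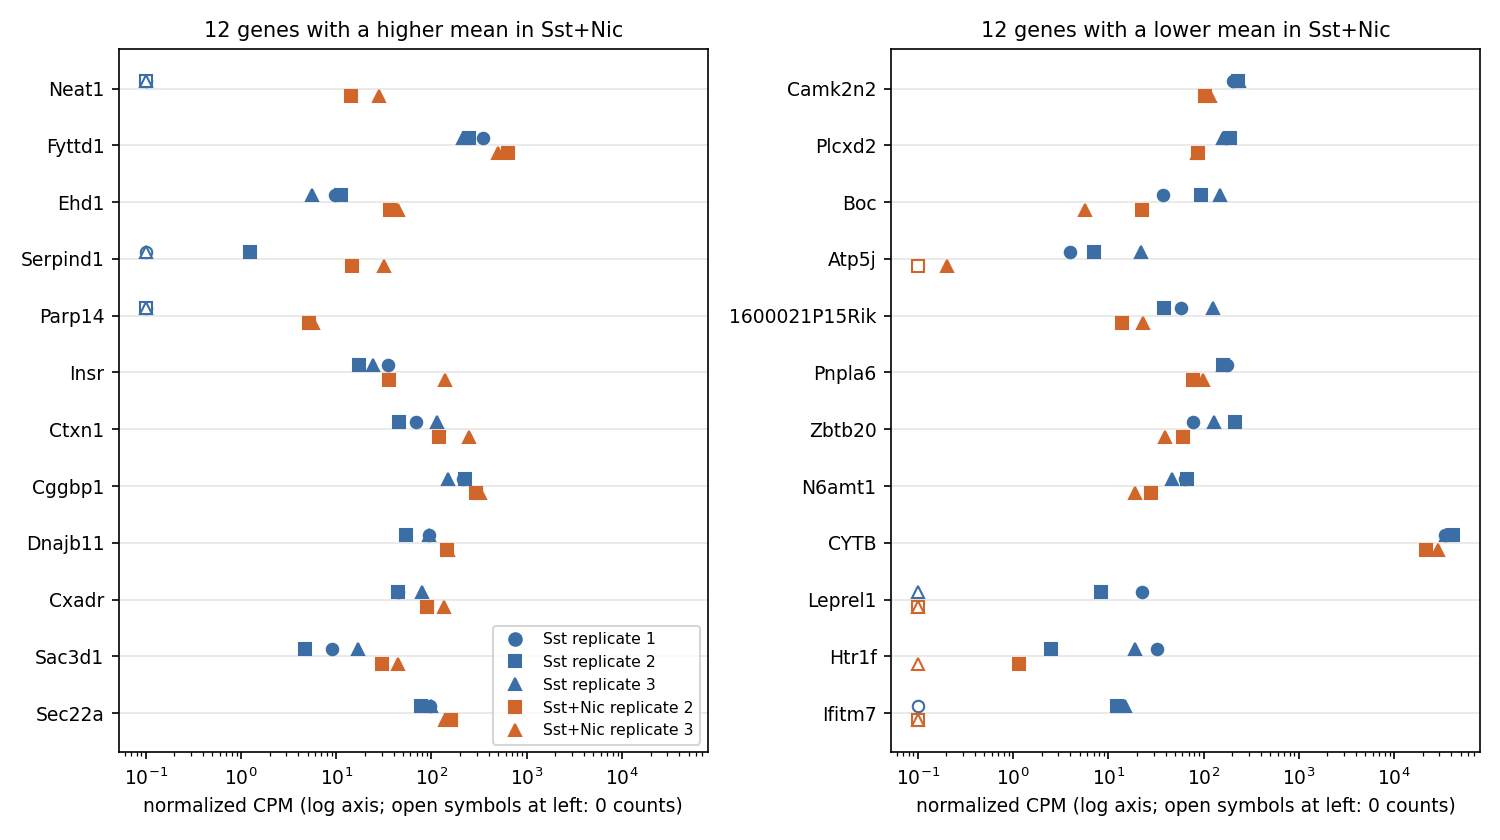
Normalized CPM (log axis) in each library for the 12 named genes with the smallest p-values and a higher mean in Sst+Nic (left) and the 12 with a lower mean (right); blue symbols are saline, orange symbols nicotine, and open symbols at the left mark 0 counts. The 24 genes were chosen by their p-values in this contrast, and 22 of them do not overlap between the groups.

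The same contrast was available in the Thy1 neurons, which come from YFPH mice on a B6 background and share no library with it. The Sst neurons come from GIN mice on FVB, so that cell type and strain cannot be told apart in this comparison. In a model with both cell types, 8242 entries were tested for a difference of the nicotine effect between Sst and Thy1 neurons, and 0 passed an adjusted p of 0.05 (605, or 7.34%, at an unadjusted p under 0.05). Of the 632 named entries, 0 passed and 55 (8.7%) had an unadjusted p under 0.05. Among the 24 genes, which were chosen by their p-value in Sst neurons, 7 were at an unadjusted p under 0.05, namely Fyttd1, Insr, Camk2n2, Boc, Zbtb20, CYTB and Htr1f. Of these 7, 5 had opposite signs in the 2 cell types, such as Camk2n2 (0.73 in Thy1 neurons), Fyttd1 (−0.41) and CYTB (0.22), and Boc (−0.09) and Htr1f (−0.49) had the same sign. Over the 24 genes, 14 had the same sign in Thy1 neurons, among them Ehd1 (1.93), Sac3d1 (1.70) and Plcxd2 (−0.48), 7 had the opposite sign and 3 were at 0 counts there. The smallest adjusted p of the difference among the genes named here was 0.672, so no effect was shown to differ between the groups of mice.

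Lists of genes by function were described by counts and medians, beside a median of −0.06 over named entries, and edgeR as set out above called 0 members of any list. DESeq2 called 1 member, Neat1 (nuclear long noncoding RNAs), and edgeR with no filter on low counts called 1, Boc (axon guidance). The insulin and fuel metabolism list had 7 of 8 tested genes at a higher and 1 at a lower level, with a median log2 fold change of 0.69, and 6 or 7 were higher across the alternatives. The median was 0.39 without Sst+Nic replicate 3 and 0.98 with the replicate block. Gsk3b (chromosome 16, 38089001 to 38246084), a kinase that insulin signalling inhibits, had the highest counts of this list. It was at 2825, 2549 and 2759 CPM in Sst and 5219 and 2806 in Sst+Nic, where only replicate 2 stood apart. Irs2, an adaptor of the insulin receptor, was at 49.8, 81.2 and 138.3 CPM against 114.5 and 115.5, inside the saline range. Gbe1, the glycogen branching enzyme, was the member with a lower mean, at 67.9, 43.1 and 51.2 CPM against 32.2 and 40.1.

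The phospholipid and diacylglycerol list, to which Plcxd2 and Pnpla6 belong, was split, with 6 of 10 tested genes higher and 4 lower and a median between −0.07 and 0.32 across the alternatives. Apod, a lipid carrier protein, was at 19.5, 125.5 and 206.6 CPM in Sst and 219.5 and 401.2 in Sst+Nic (log2 fold change 1.41, SE 0.80), and Sst replicate 1 was far below the other saline libraries. Its log2 fold change ran from 0.87 to 2.11 when 1 library was left out. Pcyt1a, the rate-limiting enzyme of phosphatidylcholine synthesis by the CDP-choline route, was at 168.0, 66.9 and 164.1 CPM against 172.2 and 224.6. Chka, the choline kinase one step earlier, was at 228.3, 177.5 and 257.6 CPM against 147.0 and 243.0. Dgkg, a diacylglycerol kinase, which overlapped on the TMM scale and not by library totals, was at 1115, 1341 and 1273 CPM against 1418 and 1255.

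For NF-kappaB and immune signalling, 8 of 11 tested genes were higher and 3 lower, with a median of 0.45 that moved between −0.03 (without Sst+Nic replicate 3) and 0.71 (without Sst+Nic replicate 2). Rela, the p65 subunit of NF-kappaB, was at 34.2, 43.7 and 35.6 CPM in Sst and 19.7 and 62.5 in Sst+Nic, so the nicotine libraries lay on either side of the saline range. Nfkbiz, a regulator induced with NF-kappaB, was at 0, 23.9 and 33.3 CPM against 32.8 and 38.4. Litaf, a lysosomal membrane protein gene induced by endotoxin, was at 0, 120.5 and 0 CPM against 52.8 and 98.7, so it was detected in 1 of 3 saline libraries and in both nicotine libraries.

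Neuronal adhesion genes were higher in 8 of 10, with a median of 0.40 and between 7 and 10 higher across the alternatives. The median was 0.19 without Sst+Nic replicate 2 and 0.67 with library totals. Ncam2 was at 97.3, 55.1 and 78.1 CPM in Sst and 191.9 and 85.0 in Sst+Nic, and Cd47, an immunoglobulin family protein that restrains phagocytosis, at 389.3, 503.1 and 379.7 against 616.7 and 493.3. The most counted member, Cadm2, a synaptic adhesion protein, was at 3864, 2411 and 2326 CPM against 2732 and 2874 and changed sign with the scaling. In axon guidance and neurite growth, 2 of 8 were higher and 6 lower with TMM, and 5 higher and 3 lower with library totals. Gap43, a growth cone protein, was at 2314, 2664 and 3044 CPM in Sst and 2053 and 2282 in Sst+Nic, with no overlap on this scale and with overlap by library totals (2472, 2194 and 2839 against 2428 and 2289), and Robo1 and Robo2, receptors for Slit, overlapped between the groups.

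Of 7 glutamate receptor, auxiliary subunit and scaffold genes tested, 4 were higher and 3 lower (3 to 6 higher across the alternatives), and all 7 overlapped between the groups. Overlap was the common state, since over all entries only 12.7% lay above the saline range and 7.92% below it. Grin2a, an NMDA receptor subunit, was at 15.8, 23.2 and 60.8 CPM in Sst and 47.8 and 67.0 in Sst+Nic (log2 fold change 0.79, SE 0.67, from 0.46 without Sst replicate 1 to 1.56 without Sst replicate 3), and Grik1, a kainate receptor subunit of interneurons, at 42.8, 71.2 and 129.6 against 105.5 and 81.1. App, the amyloid precursor protein placed in this list, was at 2733, 2655 and 2479 CPM against 1931 and 2692. Abat, which breaks down GABA, was at 1379, 781.6 and 919.1 CPM in Sst and 1029 and 969.7 in Sst+Nic, inside the saline range.

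Activity and stress responsive genes were lower in 8 of 9, with a median of −0.24 and between 5 and 9 lower across the alternatives. The median was −0.01 without Sst+Nic replicate 2, −0.56 without Sst+Nic replicate 3 and −0.04 with limma voom. Npas4, a transcription factor induced by neuronal activity, was at 17.5, 51.1 and 49.5 CPM in Sst and 27.3 and 50.5 in Sst+Nic, within the saline range. Hmox2, the constitutive haem oxygenase, was at 531.0, 868.9 and 937.9 CPM against 558.7 and 404.4 (log2 fold change −0.69, SE 0.33). Among 15 transcription factor and chromatin genes, 10 were higher and 5 lower, and 8 were higher and 7 lower without Sst replicate 2 or without Sst+Nic replicate 3. Kdm2a, a histone demethylase, was at 74.2, 91.1 and 70.9 CPM in Sst and 107.9 and 165.3 in Sst+Nic with no overlap.

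In the growth factor and MAP kinase list, 6 of 11 were higher and 5 lower, with a median of 0.09 that was −0.22 without Sst+Nic replicate 3. Fgf12, an intracellular modulator of sodium channels, was at 1636, 2230 and 2205 CPM in Sst and 1407 and 1604 in Sst+Nic, and Ube2l3, a ubiquitin-conjugating enzyme placed in this list, at 775.1, 815.0 and 793.5 against 561.0 and 567.3. In both genes the nicotine libraries lay below the saline range.

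The lists of general cell function had medians near 0 that changed sign among the alternatives. The median log2 fold change was −0.04 over 19 vesicle and endosome genes, −0.06 over 12 RNA binding genes, −0.03 over 17 genes of the ubiquitin system and protein folding and −0.02 over 12 cytoskeletal genes. Medians were 0.21 over 8 lysosomal genes and −0.20 over 10 ribosome and translation genes. The lysosomal median was −0.33 (3 higher, 5 lower) without Sst+Nic replicate 3, and the ribosomal median was 0.0037 with library totals, 0.02 without Sst replicate 1 and −0.39 without Sst+Nic replicate 2. Eif4a2, an RNA helicase of translation initiation, was at 14835, 10179 and 12409 CPM in Sst and 12482 and 8788 in Sst+Nic. Rbfox1, a neuronal splicing regulator, was at 1879, 1773 and 1851 CPM against 1550 and 1753 and changed sign with the scaling.

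**Figure D4:**
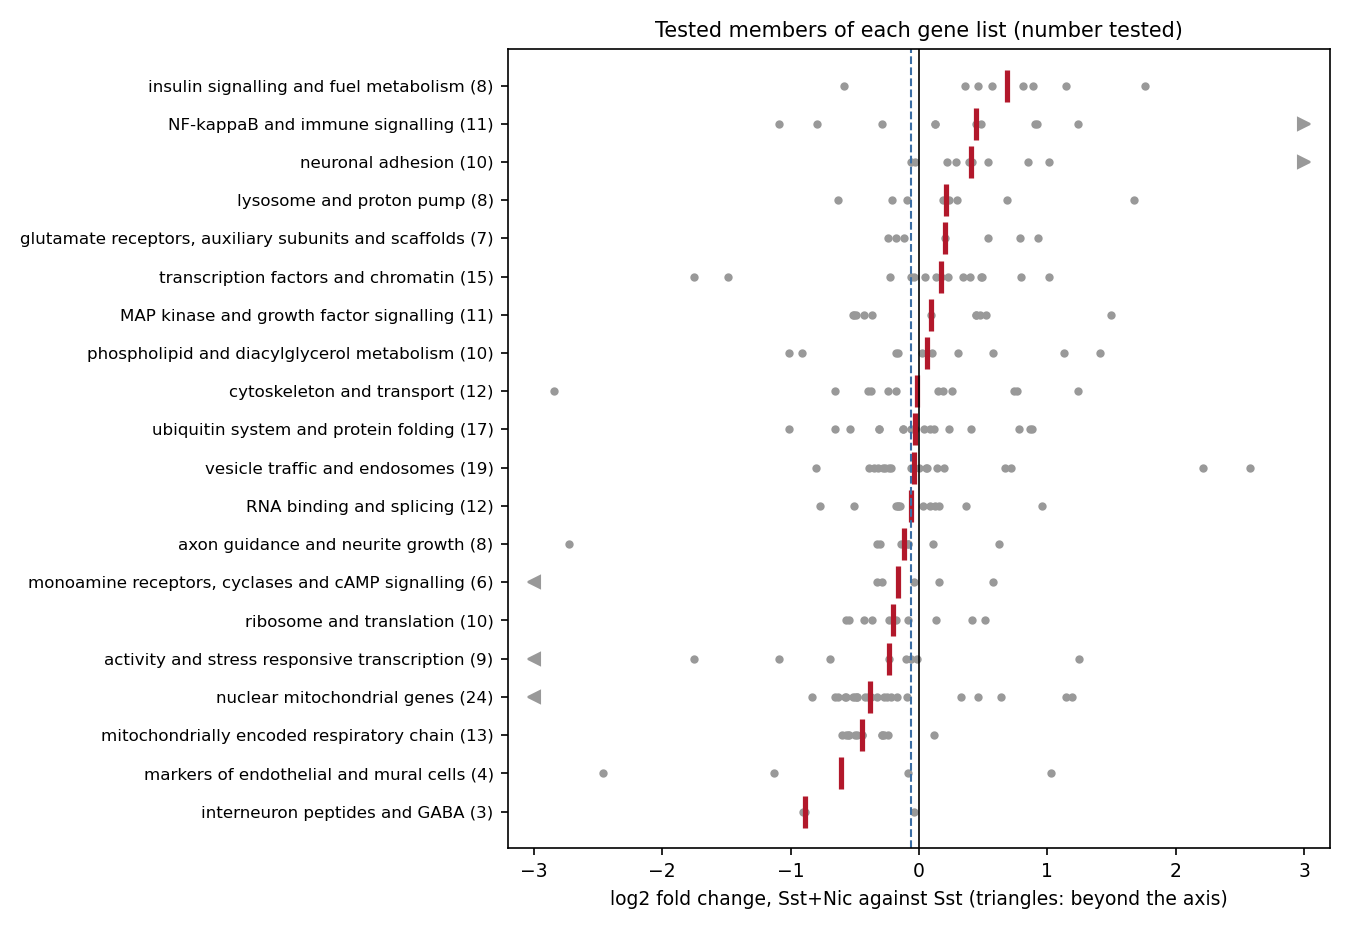
Log2 fold change of Sst+Nic against Sst for the tested members of each gene list (grey points; triangles lie beyond the axis), with the list's median as a red bar and the median of all named entries (−0.06) as a dashed line. The mitochondrially encoded genes (median −0.45) and the nuclear mitochondrial genes (−0.39) lie mostly left of 0, and the insulin list (0.69) mostly right of it.

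Markers of other cells were low and uneven among the libraries. Of 6 endothelial and mural markers, Cd248 and Myh11 were at 0 in all 5 libraries. Their summed level ranged from 52.1 to 162.3 CPM in Sst and from 40.0 to 195.8 in Sst+Nic. Cldn5, the endothelial tight junction protein, was at 0, 43.4 and 0 CPM in Sst and 0 and 13.1 in Sst+Nic, and Adamts1 was highest in Sst+Nic replicate 3, at 158.4 CPM against 10.4 in replicate 2. Of 6 immune markers 0 passed the filter on low counts, with sums from 5.21 to 15.2 CPM in Sst and from 0 to 6.96 in Sst+Nic. The part of such cells in the differences above was not tested.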

How the data were processed

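RNA of hand-collected cortical neurons was amplified with a template-switching kit, without molecular identifiers, and sequenced as paired ends. The authors aligned the reads to the mouse genome with TopHat and deposited raw fragment counts per entry; HTSeq and GRCm38 are named in the submitters' processing notes, with no versions given. The table gave 10 columns, each matched to a library. RefSeq positions on GRCm38 were matched to 25700 entries by symbol and to 3147 by an unambiguous synonym. Whether counting used strand is not given in the sources used here.

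The comparison was tested with the quasi-likelihood test of edgeR 4.0.16 (R 4.3.3) on the counts, with TMM factors and filterByExpr (minimum count 10), and p-values were Benjamini-Hochberg adjusted over all entries tested. Calls needed an adjusted p under 0.05 together with a log2 fold change past 1 in either direction. EBSeq, the tool of the study, was not used here. For shares, means were compared by exact permutation of the libraries (two-sided), and non-overlap means that all libraries of a group lay beyond all of the other. SDs are between libraries, each from 1 mouse. The fit was tested on simulated data with 200 changed genes, drawn from entries above a floor of mean counts. Shares and levels were computed in Python 3.11.15 with scipy 1.17.1, pandas 2.3.3 and numpy 2.4.6.

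Genes named were the 12 with the smallest unadjusted p in each direction, the 13 mitochondrially encoded protein genes, Sst, and from each list the member with the smallest p in each direction and the one with the most counts. Other members of the lists were named after their values were seen, as examples. The members and lists were chosen with earlier results of these data known. Alternatives were DESeq2 1.42.0, limma voom 3.58.1 with quality weights, RLE factors, library totals, other filters, all 4 groups in 1 fit, a replicate block, mitochondrial entries left out, adjusted p alone without a fold limit, and fits lacking any 1 library. The replicate numbers 2 and 3 are shared by the groups, but correlations of their deviations were −0.06 and 0.03, so the libraries were not treated as pairs.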

Additional observations from a re-analysis of the deposited data

How the results depend on the processing

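Among the alternatives with at least 2 libraries in each group, the count of called entries was 0 in all except 2. With no filter on low counts 8 entries were called, and with DESeq2 51, of which 2 were named entries in each case (Boc and Atp13a5, and Neat1 and Atp13a5). Leaving out any 1 Sst library gave 0 calls, which shows no stability, since all 5 libraries already gave 0. Without an Sst+Nic library only 1 was left in that group, so only effect sizes are given for those fits. The replicate block also gave 0 calls, and in it the median log2 fold change of the 13 mitochondrially encoded genes was −0.59. That median ran from −0.79 to −0.16 when 1 library was left out, and the −0.16, without Sst+Nic replicate 2, stood beside −0.12 over all entries of that fit. Values of some named genes changed sign with the setting, and the cause was not tested. Library totals moved the median of all entries from 0.05 to 0.27. With library totals the log2 fold change became 0.015 for App, 0.15 for Cd200, 0.15 for Cadm2, 0.057 for Rbfox1, 0.18 for Malat1, 0.19 for Cct8 and 0.0043 for Cfl1. With the replicate block it became −0.054 for Comt1, 0.069 for Cd200, 0.24 for Cadm2 and 0.0040 for Cct8. With limma voom it became 0.017 for Cadm2, 0.21 for Rtp4 and 0.039 for Malat1. Leaving out 1 library gave ranges that crossed 0 for ND2 (−0.82 to 0.13), ND4L (−0.84 to 0.10), ND5 (−0.012 to 0.24), Dlgap2 (−0.62 to 0.026), App (−0.48 to 0.023), Adcy9 (−0.076 to 1.04), Comt1 (−0.083 to 0.55), Cd200 (−0.22 to 0.088), Cadm2 (−0.16 to 0.26), Dgkg (−0.0017 to 0.16), Rtp4 (−0.74 to 0.78), Btg3 (−0.55 to 3.21), Tfg (−0.10 to 0.21), Naa50 (−0.19 to 0.95), Malat1 (−0.86 to 0.42), Cct8 (−0.18 to 0.061) and Adamts1 (−2.02 to 1.91). The common dispersion of 1.01 was above the 0.8 at which 0% of genes simulated with a change of 3 log2 units were called. That simulation changed only entries above a floor of mean counts. It also gave all genes 1 dispersion, which does not describe abundant genes with an SE near 0.2.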
